A study of Mus musculus with 6 samples.

Results

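The 10 genes examined here belong to the route that delivers proteins to lysosomes, and their transcripts were compared between Nlk-KO and WT N2a cells. They are the mannose 6-phosphate receptors M6pr and Igf2r, the sortilin-family receptors Sort1 and Sorl1, the endocytic receptor Lrp1, the enzymes Gnptab, Gnptg and Nagpa that build the mannose 6-phosphate tag, and the cargo genes Grn and Psap. They were chosen by gene symbol, and all 10 were found among the 23690 symbols and 26657 gene loci of the deposited table, each at 1 locus. N2a is a mouse neuroblastoma line. The comparison was between 3 libraries of Nlk-KO cells, in which Cas9 nickase was directed to Nlk with paired guide RNAs, and 3 libraries of isogenic WT cells. Nlk is a serine/threonine kinase, and no treatment or age was given for either group. N2a cells are polyploid and several Nlk-KO clones were expanded in the study, but the libraries, which the labels call biological replicates, are not assigned to clones. P-values therefore speak to library-to-library spread alone, and part of it may be technical.

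Most soluble lysosomal hydrolases are made in the endoplasmic reticulum and receive a mannose 6-phosphate tag in the Golgi. GlcNAc-1-phosphotransferase, whose α and β subunits come from Gnptab and whose γ subunit comes from Gnptg, adds GlcNAc-phosphate to mannose, and the uncovering enzyme encoded by Nagpa removes the GlcNAc. The cation-dependent receptor M6pr and the cation-independent receptor Igf2r bind the tag in the trans-Golgi network, release their cargo in endosomes and return. Sortilin (Sort1) binds progranulin (Grn) and prosaposin (Psap) without that tag, Lrp1 takes up secreted prosaposin and many other ligands at the cell surface, and SORLA (Sorl1) moves cargo such as the amyloid precursor protein between endosomes and the Golgi. Progranulin is cut into granulins in lysosomes, and prosaposin into the saposins that help hydrolases reach their lipid substrates.

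The sequences shown first are those around start sites that hold CACGTG, the core of the motif that MiT/TFE transcription factors bind at many lysosomal genes. They are shown because they separate the genes by a feature that their selection did not use. RefSeq windows of 300 bases, 250 before and 50 from the annotated start, were matched by symbol for 8 of the 10 genes (GRCm38.p6), and M6pr and Sort1 had none. CACGTG reads the same on both strands, as do an 8-base form that contains it, TCACGTGA, and a 10-base form in which G precedes and C follows those 8 bases. It was found in windows of Igf2r, Gnptg, Nagpa and Sorl1 and in none of those of Psap, Gnptab, Lrp1 and Grn. Each stretch is written 5′ to 3′ on the gene's strand, all of them minus strand, with CACGTG in capitals.
Igf2r, chr17:12769698-12769723: cgactcaggtCACGTGacgctccggg
Igf2r, chr17:12769739-12769764: acgaggacgtCACGTGagcaggaggc
Gnptg, chr17:25240122-25240147: ggctgtcactCACGTGaccgtgagac
Nagpa, chr16:5204007-5204032: ggcctggaatCACGTGgggcgagccc
Nagpa, chr16:5203992-5204017: ggggcgagccCACGTGaccggagcac
Sorl1, chr9:42124301-42124326: tgcgagctcaCACGTGacggcacggc
The first Igf2r stretch holds the 10-base form, and its CACGTG begins 7 bases before the start. The second Igf2r stretch and that of Gnptg hold the 8-base form TCACGTGA. Of all 32851 RefSeq windows, 7.15% hold CACGTG, 0.974% hold TCACGTGA and 0.326% hold the 10-base form. Binding was not measured, and a match describes letters only.

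FPKM, fragments per kilobase of transcript scaled to sequencing depth by the authors, are corrected for length, so levels of different genes can be set side by side. The libraries held 11441 to 11608 loci at 1 FPKM or more. Relative depth, taken from the spacing of low values, ran from 0.972 to 1.28 in Nlk-KO libraries and from 1 to 1.15 in WT libraries, with WT replicate 1 set at 1. The sources used here do not give total reads. Nlk itself had 6.78, 7.01 and 6.83 FPKM in Nlk-KO libraries, against 15.8, 16.6 and 16.1 FPKM in WT libraries (log2 fold change -1.22, SE 0.04, limma adjusted p = 1.36e-06), the direction its labels give, with transcript remaining in Nlk-KO cells. Of 12667 loci tested, 37.1% differed between genotypes at an adjusted p under 0.05 (18.6% higher and 18.5% lower in Nlk-KO), and at 51.0% the 2 sets of libraries did not overlap. All 9 N2a markers examined passed the filter, 1 of them higher and 3 lower in Nlk-KO, with Hand2 at 398 ± 7.2 FPKM in Nlk-KO and 374 ± 11.6 FPKM in WT libraries (SD, n = 3 each).

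Of the 10 genes, 8 passed the filter of a mean of at least 0.5 FPKM and were tested. M6pr and Grn were higher in Nlk-KO cells, Gnptab and Psap were lower, and Sort1, Lrp1, Gnptg and Nagpa did not pass the test. That is 4 of 8, or 50%, against 37.1% of all loci. The 2 higher genes and the 2 lower ones compare with 18.6% and 18.5% of all loci. In 5 of the 8 the libraries did not overlap between genotypes, against 51.0% of all loci. The median log2 fold change of the 8 was -0.04, and that of all tested loci was -0.01. The median size of change among all called loci was 0.30 on the log2 scale. M6pr (0.30) was close to that median, Grn (0.12) and Psap (-0.20) changed by less and Gnptab (-0.47) by more. Of called loci, 29.0% changed by more than Gnptab, the gene with the largest change of the 8. Igf2r and Sorl1 lay below the filter and are given as values. The 4 calls were all lost when the libraries were rescaled to the same FPKM sum over loci with a symbol (923 loci called by limma, and 0 of the 8 genes at an unadjusted p under 0.05), and 0 of the 8 genes exceeded a 1.2-fold change by limma's test against that size (1 at an unadjusted p under 0.05). Under the same sum the log2 fold changes kept their direction, at 0.36 for M6pr, -0.41 for Gnptab, 0.19 for Grn and -0.14 for Psap, while their SE was 0.21 to 0.25.

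**Figure D1:**
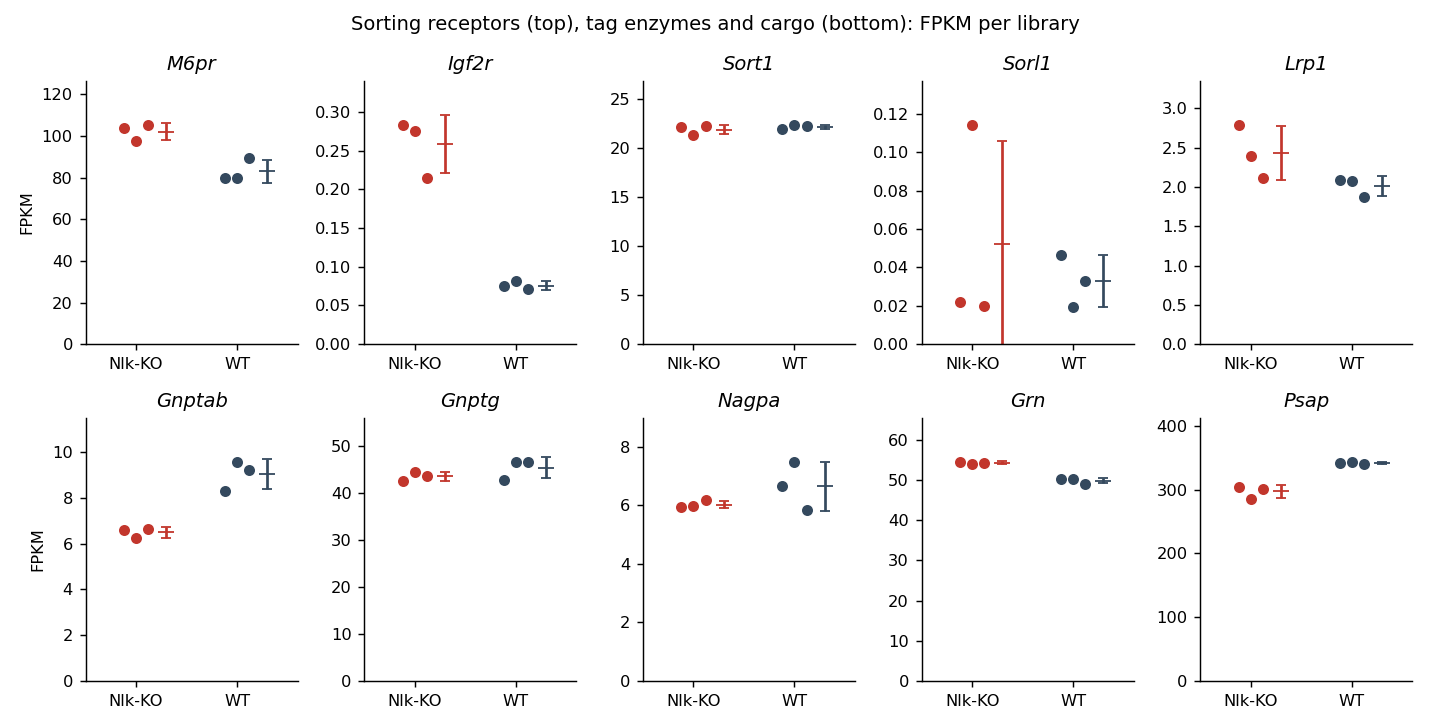
Expression of the 10 genes in FPKM (vertical axes, each starting at 0), with 1 point for each library and the mean ± SD beside the points, for Nlk-KO (left, red) and WT (right, blue). The Nlk-KO points lie above the WT points for M6pr, Igf2r, Lrp1 and Grn, and below them for Gnptab and Psap. The lower SD bar of Sorl1 in Nlk-KO is cut at 0.

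Both mannose 6-phosphate receptors had higher values in all Nlk-KO libraries than in any WT library, but at very different levels. M6pr, on chromosome 6, had 104, 97.4 and 105 FPKM in Nlk-KO libraries, against 80.0, 79.7 and 89.4 FPKM in WT libraries. Every Nlk-KO library was above every WT library. The means were 102 ± 4.19 FPKM in Nlk-KO and 83.1 ± 5.52 FPKM in WT libraries (SD, n = 3 each), and the log2 fold change was 0.30 (SE 0.06, 95% interval 0.17 to 0.43, limma adjusted p = 0.00539). In bulk RNA, a change in the share of cells that make a transcript and a change in transcript per cell cannot be told apart. The M6pr locus, as deposited, also spans the neighbouring gene Phc1, but M6pr shares no annotated exon with another gene.

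Igf2r, on chromosome 17, encodes the large receptor that carries most tagged hydrolases in many cells and also clears insulin-like growth factor 2. It had 0.283, 0.276 and 0.215 FPKM in Nlk-KO libraries, against 0.0751, 0.0813 and 0.0709 FPKM in WT libraries. The groups did not overlap, and the means were 0.258 ± 0.0374 FPKM in Nlk-KO and 0.0758 ± 0.00522 FPKM in WT libraries (SD, n = 3 each), a ratio of 3.40. On log2(FPKM + 0.1) the difference was 1.02, a scale that understates the change of so low a gene. Since the gene was below the filter it has no test here. When all loci above 0 in any library were fitted, its limma adjusted p was 0.0024, and with a pseudocount of 0.01 in the same fit the difference was 1.63 with an adjusted p of 0.00669. Even so, Igf2r made up only 0.253% ± 0.0429 of the summed FPKM of the 2 receptors in Nlk-KO and 0.0916% ± 0.0115 in WT libraries (SD, n = 3 each). In many mouse tissues, Igf2r is imprinted, and the non-coding RNA Airn, which overlaps it in antisense, silences the paternal copy. Whether this holds in N2a cells was not tested. Airn was listed at 0 in all libraries but WT replicate 3, where it had 0.0499 FPKM, and the deposited locus of Igf2r also spans Airn and Mas1.

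The tag enzymes did not move together. Gnptab, on chromosome 10, had 6.61, 6.23 and 6.66 FPKM in Nlk-KO libraries, against 8.33, 9.59 and 9.23 FPKM in WT libraries. All Nlk-KO libraries were below all WT libraries. Its means were 6.50 ± 0.235 FPKM in Nlk-KO and 9.05 ± 0.652 FPKM in WT libraries (SD, n = 3 each), with a log2 fold change of -0.47 (SE 0.06, 95% interval -0.61 to -0.32, limma adjusted p = 0.00116). Its neighbours on chromosome 10 were also lower, as described with that chromosome.

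Gnptg, whose product helps the phosphotransferase recognise its substrates, had 42.5, 44.6 and 43.6 FPKM in Nlk-KO libraries, against 42.8, 46.7 and 46.6 FPKM in WT libraries. The groups overlapped, and its log2 fold change of -0.06 (SE 0.04, 95% interval -0.16 to 0.04) had a limma adjusted p of 0.333. Of its 2249 exonic bases, 1113 overlap exons of Unkl on the opposite strand, and the sources used here do not say whether reads were counted by strand, so its level is uncertain. Smaller parts of Gnptab (158 and 107 bases), Sort1 (338 bases) and Grn (68 bases) overlap exons on the opposite strand. With that limit, there were 6.71 ± 0.387 FPKM of Gnptg for each FPKM of Gnptab in Nlk-KO libraries and 5.02 ± 0.137 in WT libraries (SD, n = 3 each).

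Nagpa, on chromosome 16, had 5.95, 5.97 and 6.17 FPKM in Nlk-KO libraries, against 6.66, 7.50 and 5.83 FPKM in WT libraries. WT replicate 3 lay below all Nlk-KO libraries and WT replicates 1 and 2 above them. Its log2 fold change was -0.13 (SE 0.09, 95% interval -0.34 to 0.07, limma adjusted p = 0.266). The value turned on single WT libraries: without WT replicate 3 the log2 fold change was -0.23 with an adjusted p of 0.038, and without WT replicate 2 it was -0.05 with an adjusted p of 0.661.

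Among the receptors that work without the tag, neither Sort1 nor Lrp1 passed the test and Sorl1 was too low to be tested. Sort1, on chromosome 3, had 22.1, 21.3 and 22.2 FPKM in Nlk-KO libraries, against 21.9, 22.3 and 22.2 FPKM in WT libraries. The libraries overlapped throughout. The log2 fold change was -0.02 (SE 0.03, limma adjusted p = 0.677), and the 95% interval of the fold ran from 0.937 to 1.04, which leaves out changes of 1.2-fold in either direction. With the libraries scaled to the same FPKM sum, the log2 fold change was 0.04 with an SE of 0.20, too wide to leave out such changes.

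Lrp1, on chromosome 10, had 2.79, 2.39 and 2.11 FPKM in Nlk-KO libraries, against 2.09, 2.08 and 1.87 FPKM in WT libraries. The groups did not overlap, but the lowest Nlk-KO library was close to the highest WT library. The log2 fold change of 0.25 (SE 0.11, 95% interval -0.01 to 0.51) did not pass the test (limma adjusted p = 0.115). It was 0.15 without Nlk-KO replicate 1 (adjusted p = 0.283) and 0.35 without Nlk-KO replicate 3 (adjusted p = 0.0521). Sorl1, on chromosome 9, was near the detection floor, at 0.0218, 0.114 and 0.0199 FPKM in Nlk-KO libraries, against 0.0465, 0.0195 and 0.0330 FPKM in WT libraries. Its highest value came from Nlk-KO replicate 2 alone, and the groups overlapped.

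The cargo genes changed in opposite directions. Grn, on chromosome 11, had 54.6, 54.0 and 54.4 FPKM in Nlk-KO libraries, against 50.3, 50.2 and 49.1 FPKM in WT libraries. The groups did not overlap, although the gap was small. The means were 54.3 ± 0.336 FPKM in Nlk-KO and 49.9 ± 0.668 FPKM in WT libraries (SD, n = 3 each), and the log2 fold change was 0.12 (SE 0.03, 95% interval 0.06 to 0.19, limma adjusted p = 0.0132).

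Psap, on chromosome 10, was the most abundant of the 10 genes. It had 304, 286 and 301 FPKM in Nlk-KO libraries, against 341, 344 and 340.0 FPKM in WT libraries. All Nlk-KO libraries were below all WT libraries, and the spread was wider in Nlk-KO. The means were 297 ± 9.75 FPKM in Nlk-KO and 342 ± 2.13 FPKM in WT libraries (SD, n = 3 each), with a log2 fold change of -0.20 (SE 0.04, 95% interval -0.30 to -0.10, limma adjusted p = 0.0083). For each FPKM of Grn there were 5.47 ± 0.147 FPKM of Psap in Nlk-KO libraries and 6.85 ± 0.0704 in WT libraries (SD, n = 3 each). For each FPKM of Sort1 there were 2.49 ± 0.0432 FPKM of Grn in Nlk-KO and 2.25 ± 0.0411 in WT libraries, while Psap stood at 13.6 ± 0.163 in Nlk-KO and 15.4 ± 0.124 in WT libraries (SD, n = 3 each).

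Macrophages express Grn and Psap strongly, so their markers were examined. Of 7 macrophage and microglia markers, 6 were below the filter, Ptprc and Csf1r among them at under 0.05 FPKM on average in either genotype. The seventh, Cd68, a lysosomal membrane protein, averaged 366 ± 20.4 FPKM in Nlk-KO and 392 ± 19.9 FPKM in WT libraries (SD, n = 3 each, limma adjusted p = 0.231), so the summed level of the list was 345 to 386 FPKM in Nlk-KO and 369 to 404 FPKM in WT libraries. Of 5 fibroblast markers only Pdgfra was tested, and it was higher in Nlk-KO cells (log2 fold change 1.06, limma adjusted p = 0.000494), while Col1a1 averaged 0.0326 FPKM in Nlk-KO and 0.0377 FPKM in WT libraries. The list summed to 1.91 to 2.06 FPKM in Nlk-KO and 0.797 to 1.04 FPKM in WT libraries. Of 3 endothelial markers only Pecam1 was tested, and it was lower (log2 fold change -0.60, limma adjusted p = 0.0223), and none of 3 astrocyte markers passed the filter. The astrocyte list summed to 0.0751, 0.608 and 0.0873 FPKM in Nlk-KO libraries, against 0.0400, 0.0470 and 0.102 FPKM in WT libraries, so Nlk-KO replicate 2, the library with the high Sorl1 value, was also the highest here. The part of these markers in the results was not tested.

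Gnptab, Psap and Lrp1 lie on chromosome 10, where transcript levels were shifted as a whole. The median log2 fold change of its 646 tested loci was -0.20, with 52 loci higher and 326 lower in Nlk-KO. Psap sat at the middle of the chromosome, where 50.6% of loci had a lower value. When each chromosome's median was taken off, Psap had a log2 fold change of 0.00 (limma adjusted p = 0.97). Gnptab had a larger decrease than most of the chromosome, with 12.4% of loci lower, and kept a log2 fold change of -0.26 (adjusted p = 0.016). Its 20 nearest tested loci had a median of -0.35, with 0 higher and 13 lower. Lrp1 stood out the other way, above 91.8% of the chromosome, and reached 0.46 (adjusted p = 0.0182). The number of copies of chromosome 10 in these cells was not measured, and a change in copies and a change in transcription cannot be told apart here.

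**Figure D2:**
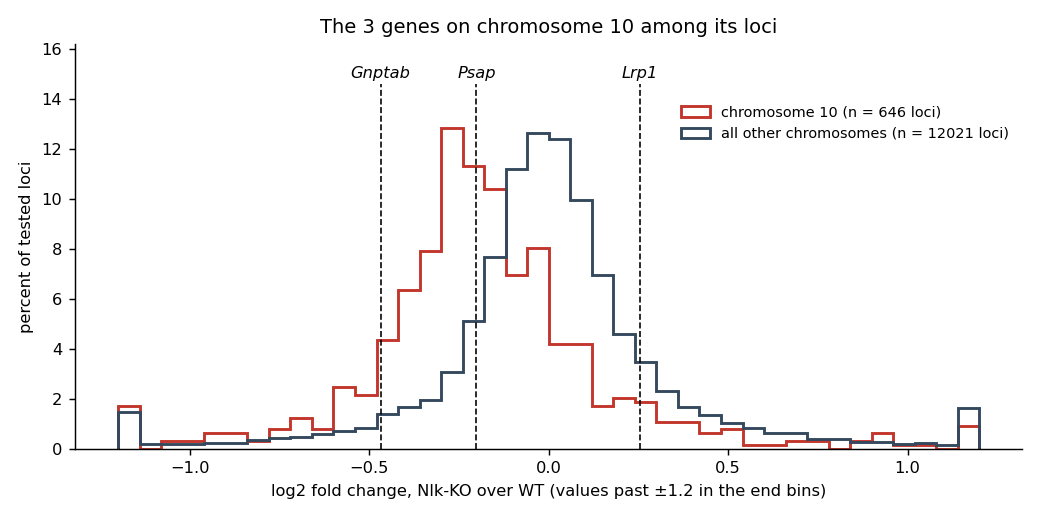
Distribution of log2 fold changes, Nlk-KO over WT, over the 646 tested loci of chromosome 10 (red) and all other tested loci (blue), as percent of loci per bin, with values past the axis put in the end bins. Dashed lines mark Gnptab (-0.47), Psap (-0.20) and Lrp1 (0.25), and the red curve sits left of the blue one around a median of -0.20.

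The other genes lay on chromosomes whose medians were nearer 0. M6pr exceeded 87.7% of the loci of chromosome 6 and had a log2 fold change of 0.29 after removal of the median (limma adjusted p = 0.00761). Grn, whose 20 nearest loci had a median of -0.13, reached 0.18 (adjusted p = 0.0028). Sort1 stood at 0.08 (adjusted p = 0.114) once the median of chromosome 3, -0.10, was removed, so its sign depended on that step.

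**Figure D3:**
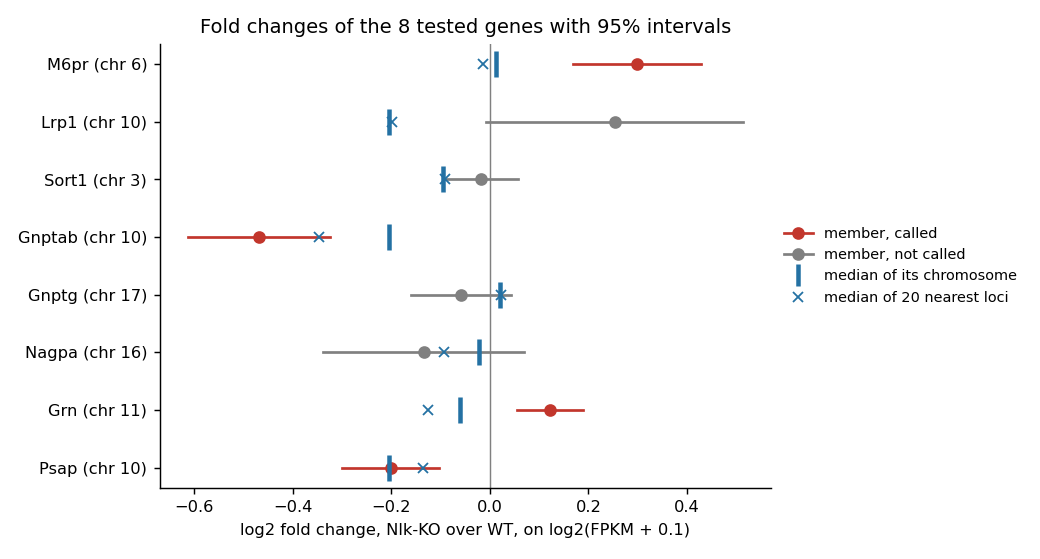
Log2 fold change, Nlk-KO over WT, of the 8 tested genes on the log2(FPKM + 0.1) scale, with 95% intervals. Red marks genes past the threshold, grey the others, the blue bar the median of the gene's chromosome and the blue cross the median of its 20 nearest tested loci. Psap lies on the median of chromosome 10, whereas M6pr and Grn lie well above theirs.

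**Figure D4:**
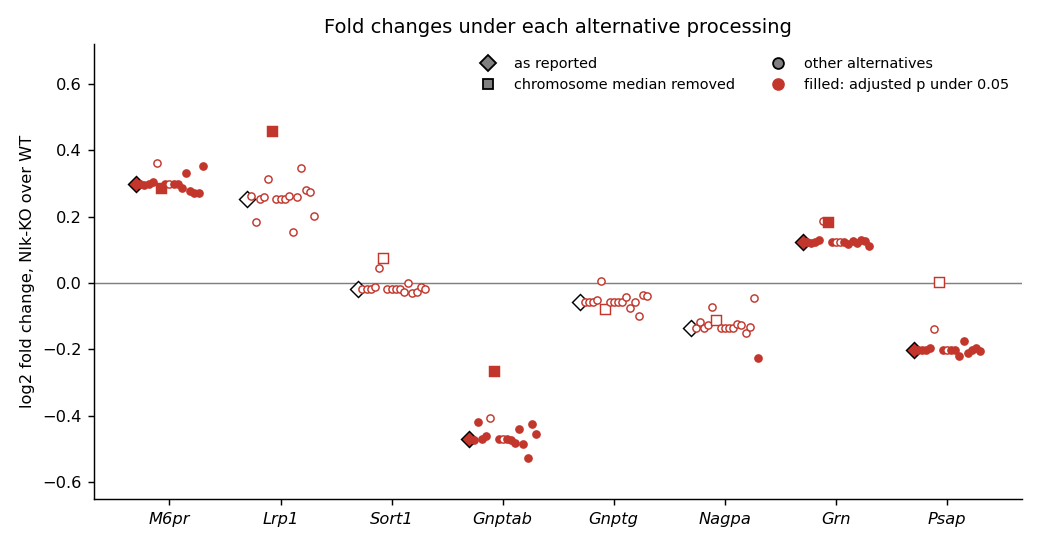
Log2 fold change of the 8 tested genes (vertical axis) under the reported processing (diamond), after removal of chromosome medians (square) and under the other alternatives (circles), filled where the adjusted p was under 0.05. M6pr, Grn and Lrp1 stay above 0 and Gnptab and Nagpa below it throughout, whereas Sort1, Gnptg and Psap each have at least 1 value on the other side of 0.

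A list of 14 other receptors and carriers held 7 genes above the filter, and the sortilin relatives Sorcs1, Sorcs2 and Sorcs3 were below it. Of the 7 tested, 5 were higher in Nlk-KO cells and 0 were lower, or 71.4% called against 37.1% of all loci, with a median log2 fold change of 0.28. Lrp5, a Wnt co-receptor, averaged 22.5 ± 0.576 FPKM in Nlk-KO and 12.4 ± 0.307 FPKM in WT libraries (SD, n = 3 each), a log2 fold change of 0.86 (limma adjusted p = 6.62e-06). Scarb2 encodes LIMP-2, a lysosomal membrane protein that carries cargo to lysosomes without the mannose 6-phosphate tag. It averaged 71.6 ± 3.76 FPKM in Nlk-KO and 55.7 ± 0.765 FPKM in WT libraries (SD, n = 3 each), a log2 fold change of 0.36 (limma adjusted p = 0.000732). Lrp12 had a log2 fold change of 0.33, and Lrp6 and Lrp10, named after their values were seen, had 0.27 and 0.28. Lrp8 (log2 fold change -0.05) did not pass the test. With the libraries scaled to the same FPKM sum, 1 of the 7 was called, against 923 of 12686 loci.

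Coats and adaptors of the trans-Golgi network, which load these receptors into clathrin carriers, were lower in 8 of 21 tested genes and higher in 1, or 42.9% called against 37.1% of all loci, with a median log2 fold change of -0.07. Cltb, a clathrin light chain, had a log2 fold change of -0.46 (limma adjusted p = 0.000419), and the AP-1 subunits Ap1m1 and Ap1s1 had -0.27 and -0.22. The gene that rose was Ap1s3 (0.13), named after its value was seen, as were Gga1, Gga2 and Gga3, the GGA adaptors that bind the receptor tails, none of which passed the test (log2 fold changes -0.07, 0.15 and -0.07). With chromosome medians removed, 4 of the 21 were lower and 0 higher, against 1780 lower and 2085 higher of 12667 loci.

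In the retromer and Golgi return list, 3 of 20 genes were higher and 4 lower, 35.0% called against 37.1% of all loci. Rabepk, a Rab9 effector in endosome-to-Golgi transport, had a log2 fold change of 0.47 (limma adjusted p = 0.000112). It lies on chromosome 2, which was raised as a whole. The median log2 fold change of the 1042 tested loci there was 0.19, with 562 higher and 61 lower in Nlk-KO. Plin3, a lipid droplet protein also described as a binder of mannose 6-phosphate receptor tails, had 0.17, and Ap5z1, a subunit of the adaptor AP-5, had -0.33. Snx5 (0.12) was also higher and Vps26b, Snx2 and Snx3 (each -0.17) were also lower, named after their values were seen, and with chromosome medians removed Snx5 and Snx3 changed sign (-0.07 and 0.04). The core retromer genes Vps35 and Vps29, named after their values were seen, had 0.09 and -0.05 and did not pass the test.

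The hydrolases that carry the tag were called about as often as other loci, with 11 of 43 higher and 5 lower, or 37.2% against 37.1% of all loci, and a median log2 fold change of 0.06. With chromosome medians removed, 9 were higher and 4 lower, against 2085 higher and 1780 lower of 12667 loci. Ctsz, on chromosome 2 and named after its value was seen, then turned from 0.17 to -0.02. The largest change was in Lipa, lysosomal acid lipase, at 0.912 ± 0.11 FPKM in Nlk-KO and 2.38 ± 0.0841 FPKM in WT libraries (SD, n = 3 each), a log2 fold change of -1.30 (limma adjusted p = 0.000111). Arsb, arylsulfatase B, had -0.61 and Ctsf, cathepsin F, had 0.61. Among 7 hydrolases that saposins or related activators assist, Gla (0.49), α-galactosidase A, was higher and Smpd1 (-0.38), acid sphingomyelinase, was lower, and the other 5 did not pass the test (28.6% called against 37.1% of all loci).

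Genes around the cargo and receptors gave the following counts. Of 6 tested genes that process or bind progranulin and prosaposin, only Tnfrsf1a was called (16.7% against 37.1% of all loci), with a log2 fold change of 0.25, and the proteases Ctsl, Ctsd, Ctsb and Lgmn, named after their values were seen, ran from -0.13 to 0.10. Of 11 ligands, partners and sheddases of sortilins and Lrp1, 6 were higher and 1 was lower, or 63.6% called against 37.1% of all loci, and 12 more of the list were below the filter. Ngfr, the neurotrophin receptor that pairs with sortilin, averaged 99.4 ± 3.31 FPKM in Nlk-KO and 52.3 ± 2.2 FPKM in WT libraries (SD, n = 3 each), a log2 fold change of 0.93 (limma adjusted p = 9.54e-06). Ntrk3, the receptor for neurotrophin-3, had 1.25, and Plat, the tissue plasminogen activator cleared by Lrp1, had 1.23.

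Of 11 ligands and neighbours of Igf2r, 7 were below the filter and 4 were tested, with Igf2 among them. Insr, named after its value was seen, did not pass the test (log2 fold change -0.01). Plaur, the urokinase receptor, had a log2 fold change of 0.75 (limma adjusted p = 8.01e-05) and Igf1r, the signalling receptor for insulin-like growth factors, had 0.19 (adjusted p = 0.0419). The ligand Igf2, named after its values were seen because its mean was under 1 FPKM, averaged 0.772 ± 0.0802 FPKM in Nlk-KO and 0.312 ± 0.045 FPKM in WT libraries (SD, n = 3 each), and since it passed the filter through its Nlk-KO libraries alone, its call is not read further. Genes around UDP-GlcNAc, the donor that Gnptab uses, were lower in 2 of 8 and higher in 0, or 25% called against 37.1% of all loci. Uap1 (-0.12) makes UDP-GlcNAc, whereas Gnpda1 (-0.44) draws away its precursor glucosamine 6-phosphate, so the 2 are not read as lower supply. Of 11 chaperones and export factors for receptors and hydrolases in the endoplasmic reticulum, Pdia3 (0.39) was higher, and Cln6 (-0.44) and Lman2 (-0.15) were lower, or 27.3% called against 37.1% of all loci. Pdia3 also lies on the raised chromosome 2. Among the MiT/TFE factors, Tfe3 averaged 15.6 ± 0.184 FPKM in Nlk-KO and 13.3 ± 0.462 FPKM in WT libraries (SD, n = 3 each), a log2 fold change of 0.23 (limma adjusted p = 0.0029), Tfeb had 0.09 and did not pass the test, and Mitf, named after its value was seen, averaged 0.459 ± 0.0334 FPKM in Nlk-KO and 0.925 ± 0.0823 FPKM in WT libraries (SD, n = 3 each), passing the filter through its WT libraries alone. Since Mitf is among the 3 genes tested, no share of these factors is set against that of all loci.

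**Figure D5:**
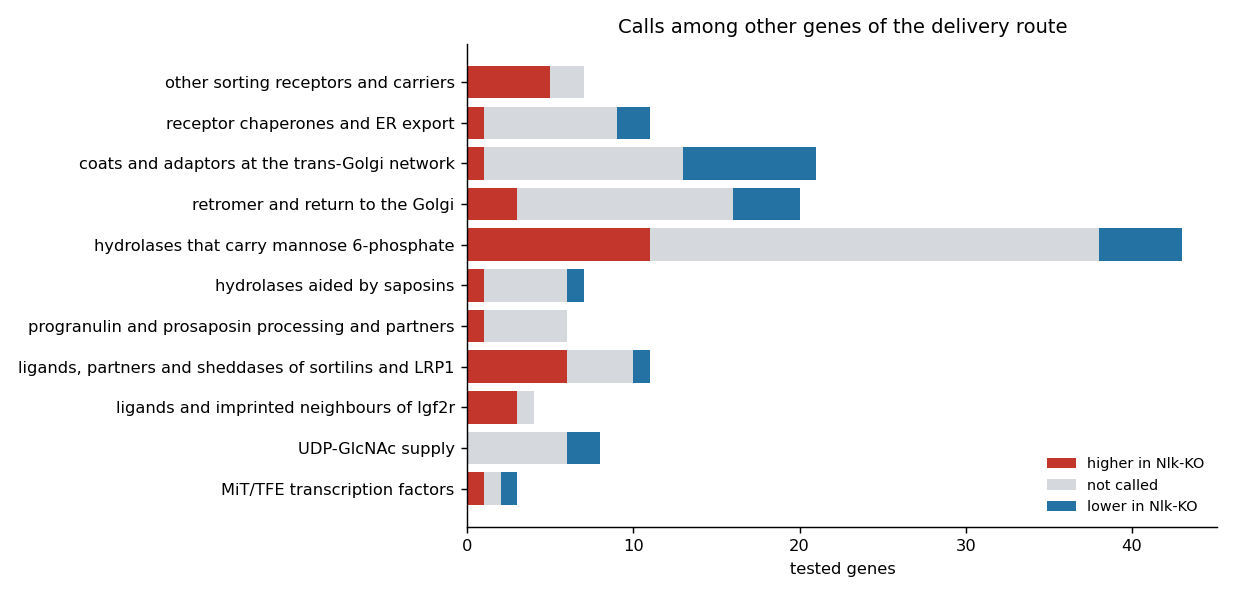
Number of tested genes (horizontal axis) in 11 lists of other genes of the delivery route that were higher in Nlk-KO (red), not called (grey) or lower in Nlk-KO (blue). Of the 7 other sorting receptors 5 were higher, against 18.6% of all loci, and of the 21 coats and adaptors 8 were lower, against 18.5% of all loci.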

How the data were processed

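RNA of 3 Nlk-KO and 3 WT N2a libraries was purified for polyadenylated transcripts with oligo-dT, reverse transcribed and sequenced as paired ends. According to the submitters' processing notes and the study's methods, the authors aligned reads with TopHat2 (2.1.0) to mm10 (GRCm38), and estimated and normalised expression with Cufflinks (2.2.1) and Cuffnorm. The authors deposited FPKM per gene locus and library. The annotation, strand setting and read totals were not given in the sources used. The table's comparison columns (fold changes and p-values of the authors) and a second table of another comparison were not used here. Library columns were matched by name, and 0 stayed unmapped. In the symbol column, 26 entries had been turned into dates.

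Loci averaging 0.5 FPKM or more over the 6 libraries were transformed to log2(FPKM + 0.1). A limma model (3.58.1, in R 4.3.3) compared genotypes using a trended prior, with p-values adjusted by Benjamini-Hochberg over all 12667 loci and a threshold of 0.05. Fold changes are Nlk-KO over WT and are understated for low genes. The script was tested on simulated data. With 3 libraries against 3, an exact permutation test cannot go below p = 0.1, so none is given. A locus was called non-overlapping where all libraries of one genotype exceeded all of the other.

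The 10 genes and the gene lists were chosen with earlier results of these data known. All 10 genes are reported in full, with up to 3 genes per list, those with the largest change past the threshold and a mean of at least 1 FPKM, and others are said to be named after their values were seen. Some genes of the lists are not reported here by name. Chromosomes, exons and overlaps came from GENCODE M21 (GRCm38), and promoter windows from RefSeq (GRCm38.p6). The alternatives were other pseudocounts, no filter, 2 other scalings, removal of chromosome medians, no trend, a test against 1.2-fold, the replicate number as a block, each library left out and, chosen after seeing the data, no filter with a pseudocount of 0.01.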

Additional observations from a re-analysis of the deposited data

How the results depend on the processing

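In all alternatives but 2, the number of loci called stayed within 1.5 times the reported 4697 and 3 to 5 of the genes were called, though not always the same ones. Without the filter, 5 of 10 genes were called, Igf2r among them, against 4812 of 20719 loci. With chromosome medians removed, 3 of the 8 genes were higher and 1 lower, against 2085 and 1780 of 12667 loci. Lrp1 was then called and Psap no longer called. Scaled to the same FPKM sum over loci with a symbol, 923 of 12686 loci passed (568 higher, 355 lower, against 2356 and 2341). Limma then called 0 of the 8 genes, with 0 at an unadjusted p under 0.05. That sum differed between libraries of 1 genotype, with factors of 0.890 to 1.17 in Nlk-KO and 0.868 to 1.15 in WT. Against a change of 1.2-fold, 1069 loci and 0 of the 8 genes passed, with 1 at an unadjusted p under 0.05. Sort1 turned to 0.044 with the same sum and to 0.076 with chromosome medians removed, Gnptg to 0.005 with the same sum, and Psap to 0.003 with chromosome medians removed. The replicate block left 4038 loci and 3 genes, without Grn (adjusted p = 0.0543), but same-numbered libraries did not deviate together (correlations 0.04, 0.06 and -0.13), so the numbers do not pair the libraries. With 1 library left out, 3500 to 4504 loci and 4 to 5 genes passed. In the lists, with the same sum 1 of 7 other sorting receptors, 0 of 21 coats and adaptors and 1 of 43 tagged hydrolases (lower) were called. The medians of the UDP-GlcNAc list (-0.03 as reported) and the retromer list (-0.05) turned, to 0.03 and 0.02 with the same sum, and to 0.03 and 0.01 with chromosome medians removed. Igf2r and Sorl1 sit where few reads fall, and the read totals that would set their precision are not known.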
